A study of Mus musculus with 9 samples.

Results

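The lamins and the LINC complex (linker of nucleoskeleton and cytoskeleton) genes were described in mouse mesenchymal stem cells after loss of beta-catenin or inhibition of Ezh2. The 9 members, Lmna, Lmnb1, Lmnb2, Sun1, Sun2, Syne1, Syne2, Emd and Lemd3, were taken by exact gene name from the 23358 entries of the gene count table. All 9 were found, and all 9 were among the 13240 genes that passed the filter on low counts. RNA was sequenced from 9 cultures of stromal cells of adult C57BL/6 mouse marrow, used at passages 4 to 10 and kept in osteogenic medium until lysis on day 4 after siRNA was added. The siBcat group (3 cultures) received siRNA against beta-catenin, the product of Ctnnb1. The GSK126 group (3 cultures) received a non-targeting siRNA together with 5 µM GSK126, an inhibitor of Ezh2, the enzyme that methylates histone H3 on lysine 27. The siCTL group (3 cultures) received the non-targeting siRNA alone, so all 3 groups were transfected. The treatment label of siBcat also lists 5 µM GSK126, whereas its titles, source names and count columns say that no inhibitor was added, and the groups follow the titles. The design text calls the 3 cultures of a group biological replicates, without saying how they were separated, so p-values measure the spread between cultures.

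Lamins are intermediate filament proteins that form a meshwork under the inner nuclear membrane. Lmna encodes lamin A and lamin C, which are linked to nuclear stiffness and, in mesenchymal cells, to the choice between bone and fat; Lmnb1 and Lmnb2 encode the B-type lamins, which stay attached to the membrane. In the LINC complex, SUN proteins (Sun1, Sun2) cross the inner nuclear membrane and hold nesprins (Syne1, Syne2), which cross the outer membrane and reach actin, motor proteins and other parts of the cytoskeleton. Emd encodes emerin and Lemd3 encodes MAN1, inner membrane proteins with a LEM domain that bind lamins and chromatin.

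The sequence before the transcription start is shown for 4 members, chosen after their values were seen. Sun1, Sun2 and Syne2 were lower after beta-catenin siRNA, and Lmna was higher after both treatments. Each line holds the 250 bases before a RefSeq start on GRCm38.p6, read on the gene's own strand, with the first listed start used where there are several. Capitals mark the core of the TCF/LEF motif, the DNA site of the partners of beta-catenin (CTTTGA or CTTTGT), and the CCAAT box, each on either strand. The motifs share no bases.
Sun1, chr5:139200387-139200636, plus strand: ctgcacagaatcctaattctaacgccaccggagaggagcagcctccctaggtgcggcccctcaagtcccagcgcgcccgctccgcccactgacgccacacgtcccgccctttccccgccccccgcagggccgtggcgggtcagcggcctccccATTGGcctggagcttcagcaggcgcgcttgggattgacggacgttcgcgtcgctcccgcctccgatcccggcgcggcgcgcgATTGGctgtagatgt
Sun2, chr15:79742537-79742786, minus strand: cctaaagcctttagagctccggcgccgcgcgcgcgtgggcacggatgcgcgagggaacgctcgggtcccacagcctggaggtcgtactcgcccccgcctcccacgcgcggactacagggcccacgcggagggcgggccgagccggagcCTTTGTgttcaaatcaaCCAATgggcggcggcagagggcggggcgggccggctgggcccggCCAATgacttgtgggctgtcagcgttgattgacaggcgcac
Syne2, chr12:75818068-75818317, plus strand: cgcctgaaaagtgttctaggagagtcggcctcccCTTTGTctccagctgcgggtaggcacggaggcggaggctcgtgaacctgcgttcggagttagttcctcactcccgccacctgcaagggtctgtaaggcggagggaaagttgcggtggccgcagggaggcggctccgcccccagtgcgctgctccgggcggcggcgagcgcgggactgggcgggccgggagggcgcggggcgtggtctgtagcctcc
Lmna, chr3:88503353-88503602, minus strand: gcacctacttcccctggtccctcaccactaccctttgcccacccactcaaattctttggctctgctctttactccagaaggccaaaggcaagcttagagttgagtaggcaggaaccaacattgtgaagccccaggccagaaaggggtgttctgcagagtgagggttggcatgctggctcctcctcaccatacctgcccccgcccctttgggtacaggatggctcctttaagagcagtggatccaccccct

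The Sun1 and Sun2 windows each held 2 CCAAT boxes, with first bases at -97 and -15 from the start in Sun1 and at -85 and -41 in Sun2. The TCF/LEF core occurred once in Sun2, at -102, and once in Syne2, at -216, and these letters were absent from the Sun1 and Lmna windows shown. Among the members' windows that are not shown, it occurred at the second start of Sun1, at -119, at the third start of Syne1, at -218, and in Emd, at -89. With siBcat, the members with the core in a window included 1 that rose (Emd), 3 that fell (Sun1, Sun2, Syne2) and 1 that did not pass (Syne1). Sun1 and Syne1 were counted only through a later start. Of the members without the core in any window at hand, Lmna and Lmnb2 rose and Lemd3 did not pass. Of 32851 RefSeq promoter windows of this length, 27.6% held the TCF/LEF core and 33.8% a CCAAT box. These shares are per window, whereas a member was counted if any of its windows held the core, so they are not comparable with that tally. The tally thus has no background beside it, and no link between the core and the response can be read from it. The windows of Sun1, Sun2 and Syne2 held 30, 31 and 26 CG dinucleotides and that of Lmna held 1, beside a median of 6 over all windows. An entry was at hand for 8 of the 9 members, all but Lmnb1. A match describes the letters only.

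Summed counts ran from 42324200 to 50327938 in siBcat, from 43062026 to 55898774 in GSK126 and from 44506814 to 46516898 in siCTL. All counts in the table were even, so the number of independent fragments may be smaller than the counts. Ctnnb1 stood at 19.33, 19.31 and 19.13 CPM (counts scaled to a common library size) in siBcat. The same gene had 925.4, 949.7 and 905.9 CPM in GSK126, against 854.4, 860.1 and 878.9 CPM in siCTL. For an inhibitor, the Ezh2 transcript does not test the label. Ezh2 was higher than in siCTL by 0.21 (log2, adjusted p = 0.0195) in siBcat and by 0.23 (adjusted p = 0.0169) in GSK126. The siBcat call was lost without any of the 3 siBcat libraries or siCTL replicate 1 or 2, and the GSK126 call without GSK126 replicate 1 or siCTL replicate 1 or 2. Of 12 mesenchymal stromal markers, Thy1 was at 0 in all libraries, and the list summed to 5560 to 5610 CPM in siBcat, 10200 to 11000 CPM in GSK126 and 6810 to 6940 CPM in siCTL. The list did not move as a whole: of 11 tested, 2 were higher and 3 lower with siBcat, and 3 were higher and 4 lower with GSK126, where the median log2 fold change was 0.008. Cxcl12 alone averaged 2396 CPM in siBcat, 8002 CPM in GSK126 and 3750 CPM in siCTL. With GSK126, Cxcl12 (1.09), Vcam1 (0.47) and Ly6a (0.38) rose, while Pdgfra (-0.59), Pdgfrb (-0.36), Prrx1 (-0.31) and Itgb1 (-0.19) fell. Haematopoietic markers (8 genes, with Ptprc, Emr1 and Sfpi1 at 0) summed to 3.31 to 3.64, 2.66 to 3.34 and 2.73 to 3.01 CPM in those groups, and endothelial markers (6 genes) to 1.66 to 2.23, 1.47 to 2.26 and 1.45 to 2.03 CPM. Muscle markers (6 genes, Myog at 0) summed to 45.3 to 49.6, 39.7 to 47.8 and 44.1 to 49.4 CPM, and neural markers (5 genes, Sox10 at 0) to 1.8 to 2.63, 2.56 to 3.21 and 1.9 to 2.42 CPM. The part of these marker levels in the results below was not tested. In bulk RNA, fewer cells of a type and less RNA per cell cannot be told apart.

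GSK126 replicate 3 differed from the other GSK126 libraries along transcript length. In GSK126 replicate 3 a smooth trend on length took 21.4% of the variance of the log2 deviations from the group mean, beside 7.03% and 9.24% in the other GSK126 libraries and 0.053 to 0.69% in the siBcat and siCTL libraries. With all genes in 10 bins of length, the bin of the longest had a median deviation of -0.23 in GSK126 replicate 3, and the bin of the shortest 0.17. Replicates 1 and 2 had 0.097 and 0.134 in the bin of the longest, and -0.075 and -0.094 in that of the shortest. Deviations were taken from the mean of the same 3 libraries, so a trend in replicate 3 forces an opposite one on the others. Values given with the length trend removed used another trend, that of each library's deviation from the mean of all 9 libraries. That removal also takes out any length-related difference between the groups. Syne1 and Syne2, listed at 18111 and 21718 bases, are giant genes and deviated in replicate 3 by -0.38 and -0.43. The fold changes of Syne1 and Syne2 are given with and without GSK126 replicate 3, as are calls of other members that leaving it out changed. Mean RPKM in GSK126 and correlations over the 9 libraries include it. Without it, Lmnb1 and Lmnb2 were higher with GSK126 than in siCTL by 0.67 (adjusted p = 1.1e-08) and 0.40 (adjusted p = 0.00285), and Sun2 by 0.15 (adjusted p = 0.00455). The differences of siBcat from GSK126 without it were -0.85 for Lmnb1 (adjusted p = 8.54e-11), -0.66 for Sun1 (adjusted p = 1.29e-10) and -0.49 for Sun2 (adjusted p = 6.19e-10).

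**Figure D1:**
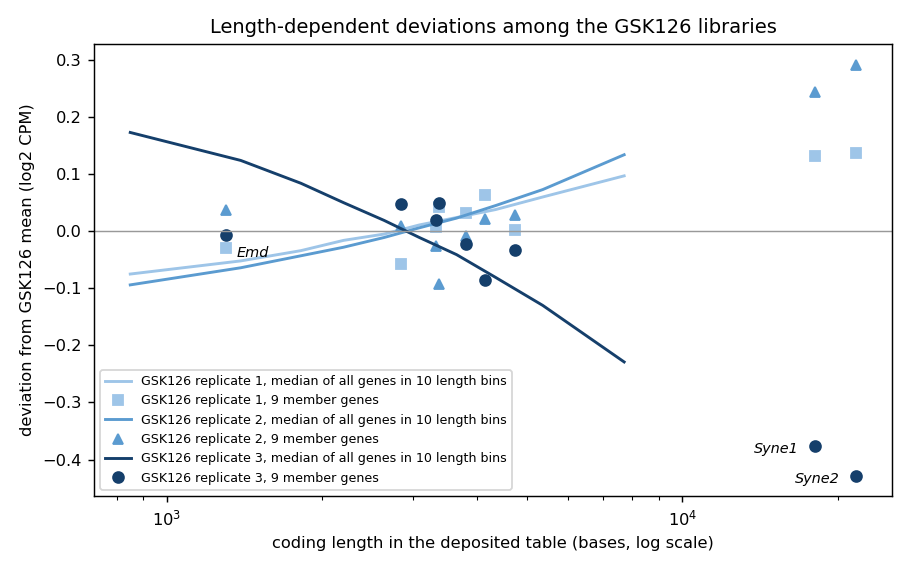
Deviation of log2 CPM from the GSK126 mean (vertical axis) against the length in the deposited table (bases, log scale) for the 3 GSK126 libraries; lines join the medians of all tested genes in 10 length bins and points are the 9 member genes. The line of replicate 3 falls with length while those of replicates 1 and 2 rise, and Syne1 and Syne2 lie at -0.38 and -0.43 in replicate 3. All deviations are from the mean of these 3 libraries, so the lines are not independent.

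Per length, in RPKM (CPM divided by the length in kilobases, recomputed from the counts), Lmna was the highest member in every group, with means of 196 ± 9.25 in siBcat, 186 ± 2.95 in GSK126 and 144 ± 23.5 in siCTL (SD, n = 3). Sun2 came next, at 52.1 ± 1.58, 72.6 ± 1.46 and 65.8 ± 2.41 RPKM in the same groups, and Emd after it, at 49.9 ± 1.75, 46.3 ± 1.08 and 44.4 ± 0.957 RPKM. In siBcat the Sun2 and Emd libraries overlapped. In siBcat the order went on with Lmnb1 (13.7 RPKM), Sun1 (11.8), Lemd3 (8.81), Lmnb2 (7.15), Syne2 (4.70) and Syne1 (3.50). The GSK126 order was the same, with Lmnb1 at 25.1, Sun1 at 18.0, Lemd3 at 8.90, Lmnb2 at 7.16, Syne2 at 5.65 and Syne1 at 2.25 RPKM, and there Lmnb2 and Syne2 overlapped. In siCTL 2 neighbouring pairs stood the other way round: Sun1 (19.3 RPKM) lay above Lmnb1 (15.4), and Syne2 (7.48) above Lmnb2 (5.32). Lemd3 was at 8.63 and Syne1 at 4.28 RPKM in siCTL. Apart from the overlaps named, the libraries of neighbours in each order were separate.

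With beta-catenin siRNA, 3 members rose (Lmna, Lmnb2, Emd) and 3 fell (Sun1, Sun2, Syne2) relative to siCTL, of 9 tested. Among all 13240 genes, 35.2% passed the same threshold, an adjusted p under 0.05, 17.7% as higher and 17.5% as lower. For 8 of 9 members the siBcat and siCTL libraries were fully separate, beside 55.2% of all genes. The median absolute log2 fold change was 0.336 over the members and 0.198 over all genes. With library size as the only scaling, or with the length trend removed, 2 members were higher and 5 lower, Emd losing its call and Lmnb1 and Syne1 gaining one. Of all genes, 1940 were higher and 2708 lower with library size only, and 2854 and 2681 with the length trend removed, beside 2346 and 2320 in the main fit.

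With GSK126, 4 members rose (Lmna, Lmnb1, Lmnb2, Sun2) and 1 fell (Syne1) relative to siCTL, of 9 tested, where 25% of all genes passed, 14.3% as higher and 10.7% as lower. The libraries did not overlap for 6 members, beside 42.1% of all genes, and the median absolute log2 fold change was 0.367 over the members and 0.169 over all genes. Both comparisons use the same siCTL libraries. Between the treatments, 1 member was higher in siBcat than in GSK126 (Syne1) and 3 were lower (Lmnb1, Sun1, Sun2), where 41.2% of all genes passed, 19.3% as higher and 21.9% as lower (with library size as the only scaling, 1882 genes higher and 3756 lower). In that comparison 5 members did not overlap, beside 52.5% of all genes, and the median absolute log2 fold change was 0.267 over the members and 0.219 over all genes. With upper quartile scaling, or with the length trend removed, the GSK126 split of the members was 4 higher and 2 lower. Of all genes, 1982 were higher and 1365 lower with upper quartile scaling, and 2139 and 1731 with the length trend removed, beside 1892 and 1419 in the main fit.

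**Figure D2:**
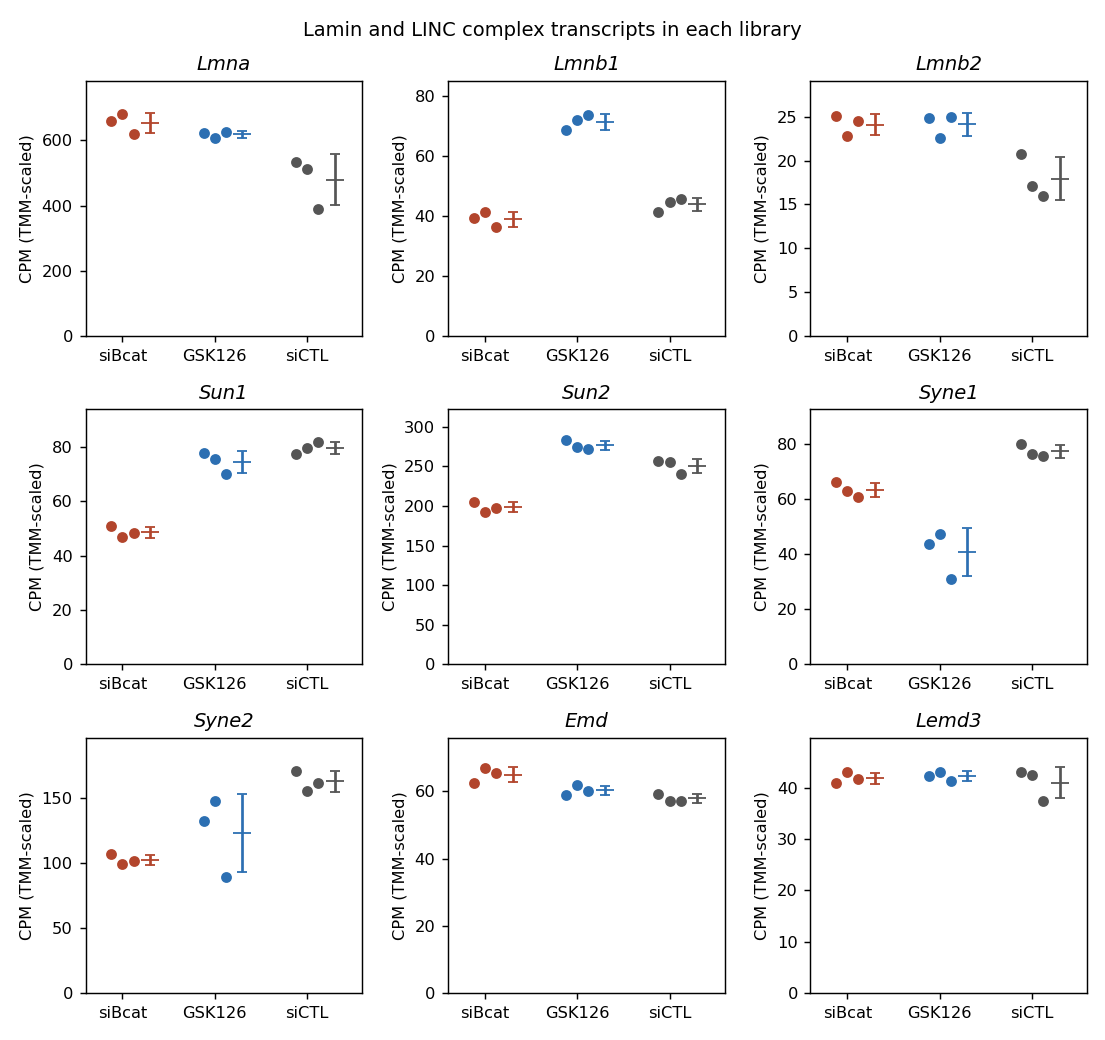
CPM after TMM scaling (vertical axes, from 0) of the 9 members in the siBcat, GSK126 and siCTL groups; points are single libraries in replicate order, and the bar beside them is the mean with its SD (n = 3). Sun1 lies at 46.67 to 50.79 CPM in siBcat, below all GSK126 and siCTL libraries, and Lmnb1 at 68.54 to 73.64 CPM in GSK126, above all others.

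**Figure D3:**
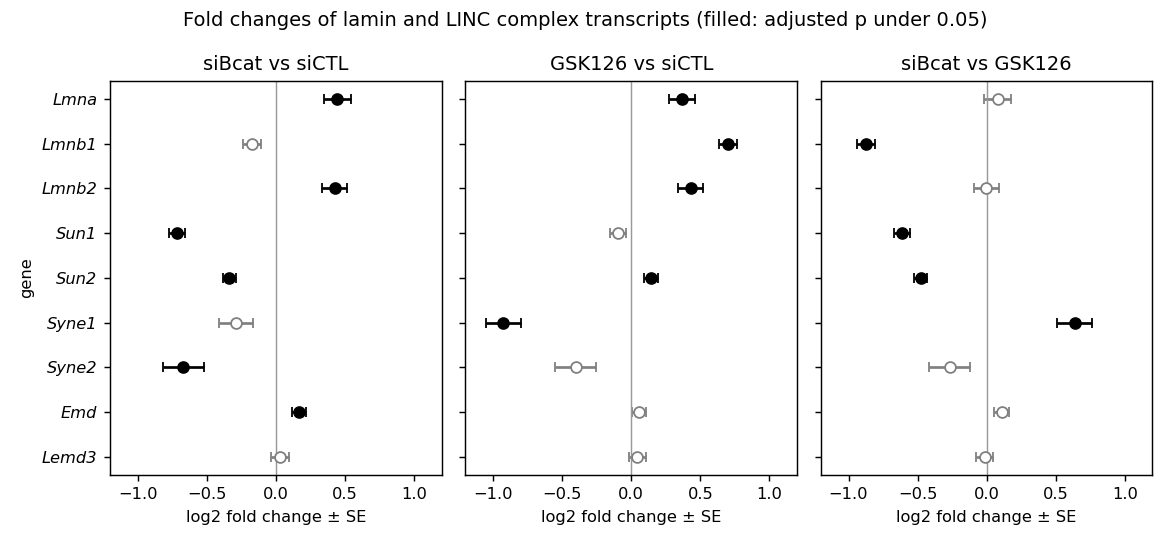
Log2 fold change with its SE (horizontal axes) of each member in the 3 comparisons; filled points passed an adjusted p of 0.05 and open points did not. Sun1 lies at -0.71 with siBcat and -0.10 with GSK126, Lmnb1 at -0.17 and 0.70, and Syne1 at -0.29 and -0.93.

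Lmna (chromosome 3, 88481149 to 88503332 on mm10) had 658.7, 679.9 and 619.3 CPM in siBcat, 621.2, 607.1 and 626.1 CPM in GSK126, and 534.8, 512.7 and 389.9 CPM in siCTL. Every treated library lay above every siCTL library, and siCTL replicate 3 was the lowest of all. The log2 fold change was 0.45 (SE 0.10, adjusted p = 0.00359) with siBcat and 0.37 (SE 0.10, adjusted p = 0.0157) with GSK126. Without siCTL replicate 3 the values were 0.32 (adjusted p = 0.00138) and 0.24 (adjusted p = 0.0136). The GSK126 call was lost without GSK126 replicate 3 (0.36, adjusted p = 0.134), which itself lay within 0.02 of its group's mean, and the siBcat call was lost when the 2 groups were fitted alone (adjusted p = 0.0666). Between siBcat and GSK126 the difference was 0.08 (adjusted p = 0.546).

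Lmnb1 (chromosome 18, 56707813 to 56753424) moved with GSK126. It had 39.2, 41.29 and 36.24 CPM in siBcat, 68.54, 71.8 and 73.64 CPM in GSK126, and 41.45, 44.56 and 45.66 CPM in siCTL. The GSK126 libraries stood apart from the other 6. Lmnb1 was 1.62-fold higher with GSK126 than in siCTL (log2 0.70, SE 0.06, adjusted p = 8.03e-06) and lower in siBcat than in GSK126 by 0.87 (SE 0.06, adjusted p = 3.97e-07). The siBcat difference from siCTL was -0.17 (SE 0.06, adjusted p = 0.053), with no overlap. That value passed the threshold without siCTL replicate 1 (-0.21, adjusted p = 0.0415), GSK126 replicate 3 (-0.17, adjusted p = 0.0115) or siBcat replicate 2 (-0.22, adjusted p = 0.0419). Proliferation genes were also highest in GSK126: the 10 listed genes summed to 684 to 715 CPM in siBcat, 966 to 1000 CPM in GSK126 and 595 to 603 CPM in siCTL. Of these, 10 were higher with GSK126 than in siCTL (25% of all genes passed) and 10 were lower in siBcat than in GSK126 (41.2% passed). In siBcat against siCTL, 5 were higher and 0 lower (35.2% passed), with a list median log2 fold change of 0.15. There Lmnb1 was at -0.17 and Mki67, the lowest of the list, at -0.19 (adjusted p = 0.151), and neither passed. The part of these genes in the Lmnb1 differences was not tested.

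Lmnb2 (chromosome 10, 80901363 to 80918245) had 25.03, 22.79 and 24.46 CPM in siBcat, 24.84, 22.6 and 24.95 CPM in GSK126, and 20.72, 17.15 and 15.96 CPM in siCTL. Both treated groups lay above siCTL without overlap, by 0.43 (SE 0.09, adjusted p = 0.00317) with siBcat and by 0.43 (SE 0.09, adjusted p = 0.00475) with GSK126. These calls held under all 24 alternatives. The treated groups overlapped, with a difference of -0.00 (adjusted p = 0.982).

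The balance of the lamins was described per length. Lmna to Lmnb1, as a ratio of RPKM, was 14.4, 14.1 and 14.6 in siBcat, 7.74, 7.23 and 7.26 in GSK126, and 11, 9.83 and 7.3 in siCTL. The siBcat libraries were above all others, whereas GSK126 and siCTL overlapped through siCTL replicate 3. Lmna made up 90.3, 90.6 and 90.3% of the summed lamin RPKM in siBcat, 85.6, 85.1 and 85% in GSK126, and 88.6, 88.1 and 84.9% in siCTL. The summed lamin RPKM was 219, 226 and 206 in siBcat, 218, 214 and 221 in GSK126, and 181, 175 and 138 in siCTL. These ratios and sums are a description, with no test.

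Sun1 (chromosome 5, 139200637 to 139249839) fell with siBcat. It had 50.79, 46.67 and 48.36 CPM in siBcat, 77.72, 75.43 and 70.11 CPM in GSK126, and 77.37, 79.56 and 81.91 CPM in siCTL. The siBcat libraries lay below all others, and GSK126 and siCTL overlapped. Against siCTL, Sun1 fell 1.64-fold in siBcat (log2 -0.71, SE 0.06, adjusted p = 1.26e-06) and it was lower than in GSK126 by 0.61 (SE 0.06, adjusted p = 3.13e-06). The GSK126 difference from siCTL was -0.10 (SE 0.06, adjusted p = 0.232). In GENCODE M21, 302 exon bases of Sun1 lie opposite an antisense gene, 4930520M14Rik, and whether counting used strand is not given in the sources used here.

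Sun2 (chromosome 15, 79724068 to 79742536) had 204.8, 192.8 and 197.8 CPM in siBcat, 282.7, 274.7 and 272 CPM in GSK126, and 256.2, 255.3 and 239.9 CPM in siCTL. The 3 groups were separate, with siBcat lowest and GSK126 highest. Sun2 fell by 0.34 with siBcat (SE 0.05, adjusted p = 0.000182) and was lower in siBcat than in GSK126 by 0.48 (SE 0.05, adjusted p = 7.03e-06). Its rise with GSK126 of 0.14 (SE 0.05, adjusted p = 0.0493) was at the threshold. It did not pass when any single library except GSK126 replicate 3 was left out (adjusted p 0.0757 to 0.17), and it was 0.06 with the GC trend removed (adjusted p = 0.321). Sun2 shares 147 exon bases with an antisense gene, Gm16575.

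The ratio of Sun1 to Sun2 in RPKM was 0.229, 0.223 and 0.225 in siBcat, 0.253, 0.253 and 0.238 in GSK126, and 0.278, 0.287 and 0.315 in siCTL. The groups did not overlap, and both treated groups had less Sun1 per Sun2 than siCTL. Summed SUN RPKM was 66.1, 61.9 and 63.6 in siBcat, 93, 90.4 and 88.4 in GSK126, and 86, 86.3 and 82.8 in siCTL. The siBcat libraries were the lowest and the GSK126 libraries the highest.

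Syne1 (chromosome 10, 5020196 to 5550692), which encodes nesprin-1, fell with GSK126. It had 66.33, 63.02 and 61.05 CPM in siBcat, 43.98, 47.55 and 30.92 CPM in GSK126, and 80.31, 76.47 and 75.96 CPM in siCTL. The 3 groups were separate, with GSK126 lowest and its replicate 3 lowest of all. Syne1 was 1.90-fold lower with GSK126 than in siCTL (log2 -0.93, SE 0.13, adjusted p = 0.000443). The value was -0.76 without GSK126 replicate 3 (adjusted p = 1.45e-10) and -0.69 with the length trend removed (adjusted p = 2.21e-08). The siBcat difference from siCTL was -0.29 (SE 0.12, adjusted p = 0.0974). That difference passed without GSK126 replicate 3 (-0.29, SE 0.04, adjusted p = 1.16e-05) and with the length trend removed (-0.22, SE 0.05, adjusted p = 0.00114) (all groups share 1 estimate of the spread). Syne1 was higher in siBcat than in GSK126 by 0.64 (SE 0.13, adjusted p = 0.00225). This difference was 0.47 without GSK126 replicate 3 (SE 0.05, adjusted p = 8.21e-08) and 0.47 with the length trend removed (SE 0.05, adjusted p = 5.54e-07).

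Syne2 (chromosome 12, 75818318 to 76110928), which encodes nesprin-2, fell with siBcat. It had 106.3, 98.85 and 101 CPM in siBcat, 132.1, 147.1 and 89.24 CPM in GSK126, and 170.7, 155.1 and 161.2 CPM in siCTL. All treated libraries lay below all siCTL libraries, and the GSK126 libraries spread to both sides of siBcat. Syne2 was lower with siBcat than in siCTL by 0.67 (SE 0.15, adjusted p = 0.00694), and by 0.67 without GSK126 replicate 3 (SE 0.05, adjusted p = 3.99e-10). The GSK126 difference from siCTL was -0.40 (SE 0.15, adjusted p = 0.0764). That difference was -0.22 without GSK126 replicate 3 (adjusted p = 0.00237), -0.56 without GSK126 replicate 2 (adjusted p = 0.0173), and -0.14 with the length trend removed (adjusted p = 0.0225). Between siBcat and GSK126 it was -0.27 (adjusted p = 0.185), and -0.45 without GSK126 replicate 3 (adjusted p = 4.26e-07). Without GSK126 replicate 2 it was -0.11.

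Syne1 to Syne2, as a ratio of RPKM, was 0.749, 0.765 and 0.725 in siBcat, 0.399, 0.388 and 0.416 in GSK126, and 0.564, 0.591 and 0.565 in siCTL. The groups were separate, and GSK126 replicate 3, at 0.416, lay close to the other GSK126 libraries. The treatments lay on opposite sides of siCTL. With the length trend removed the means were 0.753 ± 0.0195 in siBcat, 0.394 ± 0.00485 in GSK126 and 0.578 ± 0.0156 in siCTL (SD, n = 3). Summed nesprin RPKM was 8.56, 8.03 and 8.02 in siBcat, 8.51, 9.4 and 5.82 in GSK126, and 12.3, 11.4 and 11.6 in siCTL.

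**Figure D4:**
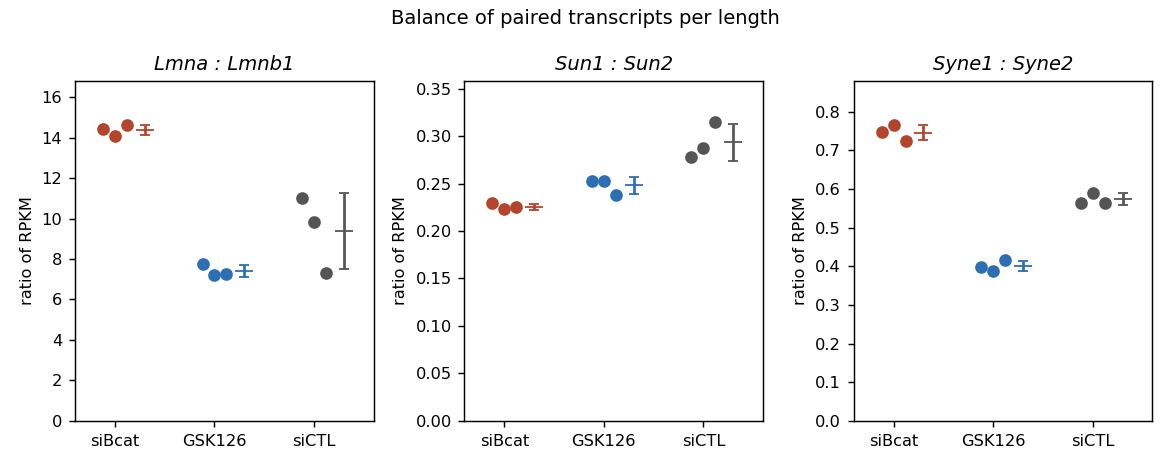
Ratio of RPKM (vertical axes, from 0) of Lmna to Lmnb1, Sun1 to Sun2 and Syne1 to Syne2 in the siBcat, GSK126 and siCTL groups; points are libraries and the bar beside them is the mean with its SD (n = 3). Syne1 to Syne2 lies at 0.725 to 0.765 in siBcat, 0.388 to 0.416 in GSK126 and 0.564 to 0.591 in siCTL.

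Emd (chromosome X, 74254839 to 74257747) had 62.53, 67.03 and 65.34 CPM in siBcat, 59.07, 61.83 and 59.99 CPM in GSK126, and 59.32, 57.08 and 57.25 CPM in siCTL. The siBcat libraries lay above the others, and GSK126 and siCTL overlapped. Emd was higher with siBcat by 0.17 (SE 0.05, adjusted p = 0.0234) and differed by 0.06 with GSK126 (SE 0.05, adjusted p = 0.43). The siBcat call was lost without siCTL replicate 2 (adjusted p = 0.117), siCTL replicate 3 (0.058), siBcat replicate 2 (0.102) or siBcat replicate 3 (0.0764). A pseudogene on the same strand, Gm14686, shares 343 exon bases with Emd.

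Lemd3 (chromosome 10, 120923411 to 120979330) had 40.81, 42.95 and 41.62 CPM in siBcat, 42.32, 43.09 and 41.28 CPM in GSK126, and 42.98, 42.45 and 37.43 CPM in siCTL. The groups overlapped in every comparison. The differences were 0.03 with siBcat (SE 0.06, adjusted p = 0.749) and 0.04 with GSK126 (SE 0.06, adjusted p = 0.642).

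Another 9 genes were listed for LEM domain proteins and for other proteins of the inner nuclear membrane or linked to the lamina. With siBcat 1 rose and 2 fell, with GSK126 6 rose and 1 fell, and against GSK126 siBcat had 0 higher and 5 lower. Among all genes, 35.2%, 25% and 41.2% passed in these comparisons, and the siBcat count, 3 of 9, lay near that share. The list's median log2 fold change was -0.074 with siBcat and 0.28 with GSK126, beside 0.002 and 0.006 over all genes. Lbr, the lamin B receptor, had 38.47, 35.94 and 38.73 CPM in siBcat, 63.31, 62.61 and 58.24 CPM in GSK126, and 53.75, 51.48 and 50.29 CPM in siCTL. It fell by 0.46 with siBcat (SE 0.06, adjusted p = 6.47e-05) and rose by 0.24 with GSK126 (SE 0.06, adjusted p = 0.00903). Tmpo, which encodes the lamina-associated polypeptide 2 proteins, had 83.18, 89.54 and 84.29 CPM in siBcat, 137.3, 140.3 and 128.3 CPM in GSK126, and 102.8, 109.4 and 107.9 CPM in siCTL. Like Lbr, it was lowest in siBcat and highest in GSK126, by -0.32 (adjusted p = 0.000654) and 0.34 (adjusted p = 0.000605) against siCTL. Nrm, which encodes nurim, rose by 0.59 with GSK126 (adjusted p = 0.000823), and Ankle1, a LEM domain nuclease, by 0.89 (adjusted p = 0.00629). The siBcat count was 5 without GSK126 replicate 3, where 6320 of all genes passed.

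**Figure D5:**
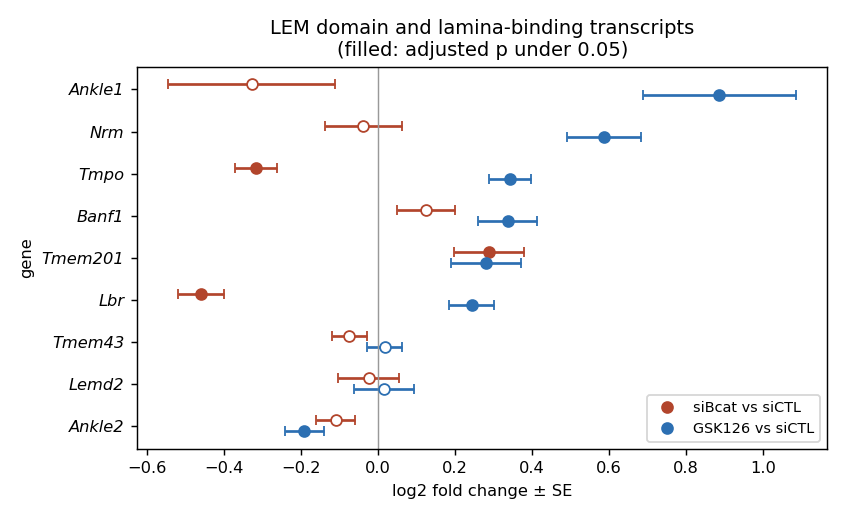
Log2 fold change with its SE (horizontal axis) of the 9 genes listed for LEM domain and other inner membrane or lamina-linked proteins, with siBcat and with GSK126, each against siCTL. Filled points passed an adjusted p of 0.05. Lbr lies at -0.46 with siBcat and 0.24 with GSK126, and Tmpo at -0.32 and 0.34.

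Lamin processing was covered by 6 genes, whose products attach a farnesyl group to prelamins, trim and methylate their ends, or bind prelamin A. With siBcat 0 rose and 1 fell, and with GSK126 0 rose and 2 fell. In siBcat against GSK126, 2 were higher and 2 lower. The median log2 fold change was -0.05 with siBcat and -0.053 with GSK126. Of all genes, 35.2% passed with siBcat, 25% with GSK126 and 41.2% between the treatments. Narf, which encodes a protein that binds prelamin A, had 12.81, 12.87 and 12.21 CPM in siBcat, 17.38, 18.1 and 17.19 CPM in GSK126, and 18.64, 18.95 and 21.39 CPM in siCTL. It fell by 0.64 with siBcat (SE 0.07, adjusted p = 3.02e-05). Zmpste24, the protease that matures prelamin A, fell by 0.37 with GSK126 (SE 0.06, adjusted p = 0.0013), and Icmt, which methylates the farnesylated end, by 0.18 (SE 0.05, adjusted p = 0.014). The Icmt call was lost with the length trend removed (adjusted p = 0.108). Without GSK126 replicate 3, 2 of the 6 genes passed with siBcat, where 6320 of all genes passed.

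Further SUN and KASH proteins and the torsins, enzymes of the nuclear envelope lumen that act on LINC complexes, were listed as 10 genes, of which 9 were matched and 6 tested. Sun3 and Sun5 were at 0 in all libraries, Lrmp did not pass the filter on low counts, and Syne3 was not matched. With siBcat 2 rose and 0 fell, and the list's median log2 fold change was 0.157 with siBcat and 0.014 with GSK126. Tor1b rose by 0.49 (SE 0.05, adjusted p = 1.63e-05), with 84.15, 82.58 and 85.91 CPM in siBcat and 62.03, 59.33 and 58.69 CPM in siCTL. Tor1aip1, the torsin cofactor LAP1, rose by 0.29 (SE 0.08, adjusted p = 0.0124), a call lost without siBcat replicate 1 (adjusted p = 0.0811). With GSK126, 0 of 6 passed by edgeR, 0 had an unadjusted p under 0.05, and 0 passed by DESeq2 or limma-voom. Of the 6, 3 were higher in siBcat than in GSK126 (1 without siBcat replicate 1). Beside these counts, 35.2% of all genes passed with siBcat, 25% with GSK126 and 41.2% between the treatments.

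Of 7 cytoskeletal partners of nesprins, 3 rose and 0 fell with siBcat, 0 rose and 1 fell with GSK126, and 5 were higher in siBcat than in GSK126. Their median log2 fold change was 0.23 with siBcat and -0.104 with GSK126. Of all genes, 35.2%, 25% and 41.2% passed in these comparisons. Plec, which encodes the cytolinker plectin, had 1279, 1222 and 1104 CPM in siBcat, 847.1, 868.8 and 668.4 CPM in GSK126, and 906, 871.2 and 667.3 CPM in siCTL. It rose by 0.56 with siBcat (SE 0.13, adjusted p = 0.00706), with replicate 3 the lowest library in each group. The kinesin-1 subunit genes Kif5b and Klc1 rose by 0.30 (adjusted p = 0.00264) and 0.25 (adjusted p = 0.00447). Kif5b was the gene that fell with GSK126 (-0.20, adjusted p = 0.0349), and that count was 0 without siCTL replicate 1, siBcat replicate 2 or siBcat replicate 3, 2 without GSK126 replicate 2 and 3 without GSK126 replicate 3.

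Among 4 genes for kinases and mitotic regulators that act on the lamina, 1 rose and 1 fell with siBcat, 2 rose and 0 fell with GSK126, and against GSK126 siBcat had 0 higher and 2 lower. Their median log2 fold change was 0.047 with siBcat and 0.257 with GSK126. Of all genes, 35.2%, 25% and 41.2% passed in these comparisons. Ccnb1 and Cdk1, the cyclin and kinase that drive lamina disassembly at mitosis, rose by 0.71 (adjusted p = 2.54e-06) and 0.59 (adjusted p = 9.01e-06) with GSK126; both are also in the proliferation list above. Prkca, protein kinase C alpha, fell by 0.35 with siBcat (adjusted p = 0.00928). Without siCTL replicate 2, the siBcat count was 1, since Cdk1 (0.21) had an adjusted p of 0.0507.

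The nuclear pore complex was listed as 30 genes, of which 29 were matched (all but Nup58) and 28 tested. With siBcat 7 rose and 1 fell, with GSK126 3 rose and 1 fell, and in siBcat against GSK126 6 were higher and 2 lower. With all 9 libraries, these 8, 4 and 8 calls among 28 genes lay below the shares of all genes that passed, 35.2%, 25% and 41.2%. The list's median absolute log2 fold changes, 0.109, 0.128 and 0.129, were also below those of all genes, 0.198, 0.169 and 0.219. Aaas, which encodes the pore protein aladin, rose by 0.39 with siBcat (adjusted p = 5.9e-05), Tmem48, the table's name for the pore membrane protein gene Ndc1, by 0.66 (adjusted p = 0.000365), and Sec13, a subunit of the pore's outer ring and of a vesicle coat, by 0.32 (adjusted p = 0.000446). Tpr, of the pore's nuclear basket, fell by 0.34 with GSK126 (adjusted p = 0.00238). The siBcat count was 15 without GSK126 replicate 3, where 6320 of all genes passed, and it then no longer lay below the share of all genes. It was 5 without siCTL replicate 1 (3913 of all genes) and 4 without siBcat replicate 1 (3707 of all genes). The GSK126 count was 8 without GSK126 replicate 3, near the share of all genes there (3844 passed). It was 1 without siCTL replicate 2 (2337 of all genes), and 2 without siCTL replicate 1 (2574) or any of the siBcat libraries (2852 to 2981).

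Likeness of pattern was described by Pearson's r of log2 CPM over the 9 libraries, searched over 8378 genes that averaged 10 CPM or more. These values rest on 3 groups, share their libraries, and carry no test. For Lmna the nearest genes were Jun (0.994) and Gipc1 (0.988), for Lmnb1 Racgap1 (0.991) and D2Ertd750e (0.987), and for Lmnb2 Tubb6 (0.964) and Igsf8 (0.963). For Sun1 they were Tcn2 (0.996) and C1qtnf1 (0.995), for Sun2 Naglu (0.996) and Scly (0.993), for Syne1 Rbm26 (0.991) and Six4 (0.99), and for Syne2 Specc1 (0.992) and Sgpl1 (0.989). For Emd they were Mboat7 (0.968) and Srprb (0.967), and for Lemd3 Midn (0.935) and B3gnt1 (0.923). Among the members themselves, Lmna ran with Lmnb2 (0.905) and Sun1 with Sun2 (0.896), while Sun1 ran against Emd (-0.912) and Lmnb1 against Syne1 (-0.823).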

How the data were processed

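RNA-seq libraries of 9 cultures were analysed. The submitters' processing notes name the mm10 build and the tools HTSeq, TopHat2 2.0.6 and bcl2fastq. The authors deposited raw counts by gene, and RPKM values that served here only to recover each library's total; the summed counts were 89.85 to 90.69% of it. The deposited length, also used as the coding length in RPKM, was a multiple of 3 in 37.8% of entries. Another 6 per-sample columns were not used.

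Genes were filtered by edgeR 4.0.16 (filterByExpr, minimum count 10, minimum total 15), scaled by TMM and tested in R 4.3.3 with the quasi-likelihood F-test, robust, on all 9 libraries; Benjamini-Hochberg adjustment covered 13240 genes, and the threshold was 0.05. The SE is the absolute log2 fold change over the root of F. The common biological coefficient of variation was 8.12%. CPM, and RPKM over the deposited length, use TMM-scaled library sizes, and log2 CPM a prior count of 2. The fit was tested on simulated data without a length trend, with 50 genes changed at each fold in each comparison. It called 19 to 22 of those changed 1.25-fold and 50 of those changed 2-fold, with 7 to 14 false calls. A difference near 1.25-fold can thus be missed. Alternatives used DESeq2 1.42.0 and limma 3.58.1; numpy 2.4.6 and pandas 2.3.3 under Python 3.11.15 did the rest, with figures from matplotlib 3.10.9.

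The members and gene lists were chosen with earlier results of these data known. Named genes were all members, up to 4 genes of each related list with the smallest adjusted p against siCTL, the 2 genes most like each member, and Ctnnb1 and Ezh2. Lists were described by counts, without a set test.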

Additional observations from a re-analysis of the deposited data

How the results depend on the processing

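Over 24 alternatives, the calls of Sun1, Sun2, Syne2 and Lmnb2 (siBcat against siCTL), of Lmnb1, Lmnb2 and Syne1 (GSK126 against siCTL), and of Lmnb1, Sun1, Sun2 and Syne1 (siBcat against GSK126) held. With a fold change of at least 2 also required, 603, 360 and 797 genes passed in these comparisons, against 4666, 3311 and 5450, and 0 members passed in each; the smaller counts follow from the added limit. Leaving out 1 library gave 3613 to 6320, 2337 to 3844 and 4417 to 6318 genes, and 5 to 8, 4 to 5 and 4 to 5 members. With siBcat, Lmnb1 passed in 11 alternatives (adjusted p 0.0115 to 0.214 over all 24) and Syne1 in 7 (1.09e-05 to 0.226), while Emd was lost in 8 (0.00257 to 0.117) and Lmna in 1. With GSK126, Sun2 was lost in 14 (0.00424 to 0.321), Lmna in 2 (0.00221 to 0.143), and Syne2 passed in 9 (0.00237 to 0.169). Between the treatments, Syne2 passed in 4 (3.98e-09 to 0.548) and Emd in 1 (0.0305 with the GC trend removed). The cause was not tested.

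Removing the length trend together with the replicate block, and removing it without GSK126 replicate 3, were chosen after seeing the data. Without GSK126 replicate 3 and the length trend, the GSK126 values were -0.13 for Syne2 (adjusted p = 0.0188) and 0.35 for Lmna (adjusted p = 0.143).

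Signs turned only in differences that passed in no alternative. With siBcat, Lemd3 was -0.0042 with library size only and -0.031 to 0.0645 with 1 library left out. With GSK126, Emd was -0.0196 with the length trend removed and -0.0214 with the replicate block as well, and Lemd3 was -0.0197 to 0.0754 with 1 library left out. Between the treatments, Lmnb2 (main value -0.0034) was 0.009 with DESeq2 and with its size factors, 0.0099 with 2 groups, 0.0003 with the length trend removed, 0.002 with the block as well, 0.0574 with the GC trend removed, 0.0385 without the length trend and GSK126 replicate 3, and -0.0432 to 0.0394 with 1 library left out; Lemd3 was 0.004, 0.0029 and 0.0065 in 3 alternatives.

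Same-numbered libraries of different groups did not deviate together (correlations -0.031 to 0.069). The labels do not say whether a number marks a shared day or animal. Correlations of deviations from means of 3 libraries cannot decide it. With the replicate block, 6, 5 and 4 members and 4514, 3135 and 5267 genes passed in the 3 comparisons; with GSK126, Sun2 was lost (0.14, adjusted p = 0.0563) and Syne2 passed (-0.42, adjusted p = 0.0371).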
